A study of Mus musculus with 6 samples.

Results

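The genes described here are 10 transporters of the hepatocyte plasma membrane that carry bile acids, organic anions, phospholipid and sterols. They were chosen by name (Abcb11, Abcb4, Slc10a1, Slco1a1, Slco1a4, Slco1b2, Abcc2, Abcc3, Abcg5 and Abcg8) and matched by their symbol to the annotation of an exon-level array. They account for 206 of the 204531 probe sets measured, and for 10 of the 15045 genes tested. All 206 probe sets carry the symbol of a single gene, and all had a group mean at or above the minimum of 3 log2 units used here, with the lowest group mean at 6.22, so none of the 206 was left out by that filter.

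The samples were livers of 3 mice labelled Dhx32-/- mutant and of 3 mice labelled wild type, called mutant and control below. All 6 were males of 6 to 8 weeks, and 1 array was hybridised per liver with total RNA from snap-frozen tissue. The homozygous mutation affects Dhx32, a DEAH-box helicase gene; the kind of mutation, the strain background and the time of day of collection are not given in the sources used here. The study set out to find transcripts and exons that differ between these livers.

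Hepatocytes move bile constituents from blood to bile across 2 faces of the cell. At the sinusoidal face, uptake carriers of the SLC10 and SLCO families take up bile acids and other organic anions from blood. At the canalicular face, ATP-binding cassette pumps export bile acids, conjugated anions, phospholipid and sterols into bile, and other pumps return anions to blood when bile flow is impaired. The bile acid receptor FXR, the sterol receptor LXR, the xenobiotic receptors and inflammatory cytokines are known to control many of these genes in rodents.

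The labels and arrays were checked before the transporters were compared. Dhx32 read 6.35, 6.60 and 7.04 log2 units in mutant livers, against 8.28, 8.85 and 8.62 in control livers, so every liver labelled mutant lay below every control. The difference was -1.92 (SE 0.23), with an adjusted p = 0.183 in limma over all genes. Array medians ran from 6.73 to 6.95 log2 units. Mutant replicate 1 stood apart from the rest: its Pearson correlations with the other 5 arrays, across probe sets, were 0.935 to 0.940, whereas those among the other 5 ran from 0.960 to 0.973. Hepatocyte markers were measured at high levels in every liver, with a mean over 10 genes of 12.97 to 13.11 in mutants and 12.96 to 13.05 in controls. The defining bile duct marker Krt19, a keratin, was dim in mutants (5.74 to 5.96) and controls (5.70 to 5.93).

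The sequence between the divergent starts of Abcg5 and Abcg8 and the sequences upstream of Slco1a4 and Abcb11 are shown. Abcg5 and Abcg8 encode the subunits of a sterol exporter, are read from opposite strands and share this stretch. Slco1a4 had the largest group difference of the 10 genes and Abcb11 one of the smallest. The sequences are from RefSeq on build GRCm38.p6, given 5′ to 3′. The Abcg5 and Abcg8 stretch is on the plus strand at chr17:84683012-84683120, in which the capitals mark the GATA box, AGATAA or its reverse complement. The Slco1a4 stretch, at chr6:141856285-141856470, and the Abcb11 stretch, at chr2:69342617-69342866, are on the minus strand. The capitals in the Abcb11 stretch mark the nuclear receptor hexamer AGGTCA, as its reverse complement.
Abcg5-Abcg8: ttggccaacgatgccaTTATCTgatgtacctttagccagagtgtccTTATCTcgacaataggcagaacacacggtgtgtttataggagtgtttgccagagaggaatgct
Slco1a4: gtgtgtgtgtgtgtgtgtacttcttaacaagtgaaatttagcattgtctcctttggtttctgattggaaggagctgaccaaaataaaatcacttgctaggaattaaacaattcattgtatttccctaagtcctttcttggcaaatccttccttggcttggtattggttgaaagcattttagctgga
Abcb11: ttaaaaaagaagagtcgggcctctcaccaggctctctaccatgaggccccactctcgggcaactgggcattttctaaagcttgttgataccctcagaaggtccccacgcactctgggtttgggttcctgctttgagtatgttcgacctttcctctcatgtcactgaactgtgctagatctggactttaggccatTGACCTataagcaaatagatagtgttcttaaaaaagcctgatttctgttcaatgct

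In all, 6 motifs were searched on both strands of the 250 bases upstream of the RefSeq start, which was at hand for 9 of the 10 genes. The hexamer AGGTCA, the unit that nuclear receptors bind in pairs, was found in 4 of the 9 (Abcb11, Abcc2, Slco1a1 and Slco1b2), against 13.8% of 27025 promoter windows. The inverted repeat AGGTCANTGACCT, an element of the kind FXR binds, was found in 0 of the 9 and in 0.0074% of all windows. The GATA box was found in Abcg5 and Abcg8, whose windows overlap, and in 10.3% of all windows. The HNF1 motif GTTAAT was found in Slco1b2, and in 6.52% of all windows. The E-box CACGTG and the D-box TTATGNAA, which clock factors bind, were found in 0 of the 9, against 6.05% and 3.23% of all windows.

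All 10 transporters had a lower mean signal in mutant livers, and none of these differences passed the test. The differences ran from -1.20 for Slco1a4 to -0.08 for Abcg5 on the log2 scale, with a median of -0.30 over the 10, against a median of -0.01 over all genes. In limma, 0 of the 10 reached an adjusted p under 0.05 and 1, Slco1a4, reached an unadjusted p under 0.05. Of all genes, 0.00665% passed and 2.20% were lower at an unadjusted p under 0.05, and 52.5% had a lower mean in mutants. In each of the 10 genes the values of the groups overlapped, while in 4.32% of all genes every mutant lay below every control.

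The common direction came with a single liver. Mutant replicate 1 was the lowest of the 6 arrays in 10 of 10 transporters, and in 32.8% of all genes. It deviated from the control mean by -0.24 (Abcb11) to -2.23 (Slco1a4) log2 units, with a mean of -0.95. Mutant replicate 2 lay below the control mean in 8 of the 10 genes, with a mean deviation of -0.18, and mutant replicate 3 in 4 of the 10, with a mean deviation of 0.15. Control replicate 1 lay below the control mean in 7 of the 10, with a mean deviation of -0.15, and the other controls deviated by 0.14 and 0.01. Of all genes, 56% lay below the control mean in mutant replicate 2, 37.4% in mutant replicate 3 and 52.9% in control replicate 1. Without mutant replicate 1, 5 of the 10 transporters had a lower mean in mutants, where 45.8% of all genes did, and the median difference was 0.005.

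**Figure D1:**
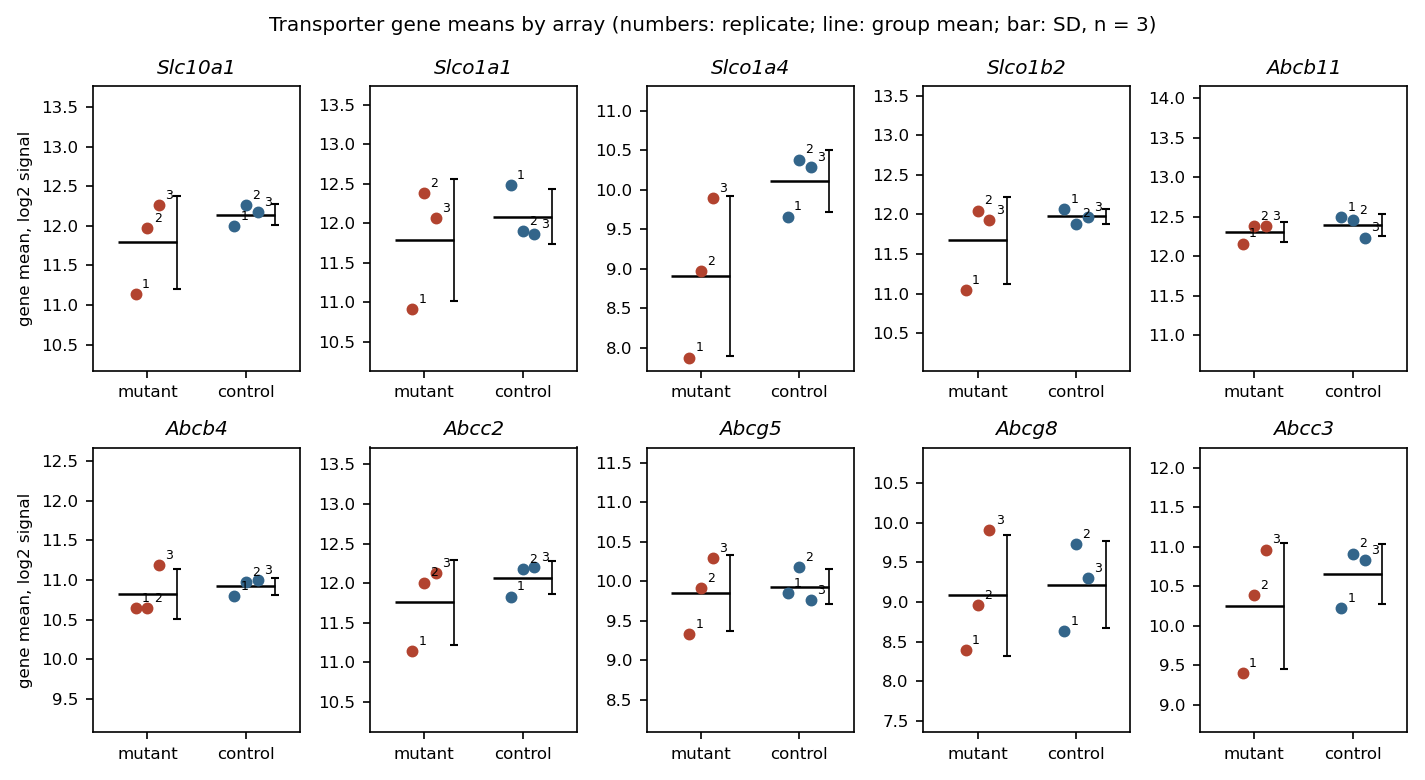
Gene means of log2 signal of the 10 transporters, 1 panel per gene, with the 3 mutant livers left and the 3 control livers right. Each point is an array numbered by its replicate, the line is the group mean and the bar its SD, and each vertical axis spans the same number of log2 units. Mutant replicate 1 is the lowest point in all 10 panels.

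Among the sinusoidal uptake carriers, Slco1a4 had the largest difference of all members. Slco1a4, also named Oatp1a4, takes up bile acids, steroid conjugates and digoxin, and is known in mice as a target of the xenobiotic receptor PXR. Its gene mean was 7.88, 8.97 and 9.89 in mutant livers, against 9.66, 10.38 and 10.29 in control livers. Mutant replicates 1 and 2 lay below all controls, and mutant replicate 3 lay above control replicate 1 and below the other controls. The means were 8.91 ± 1.01 in mutants and 10.11 ± 0.39 in controls (SD, n = 3 each), a difference of -1.20 (SE 0.46; 95% confidence interval -2.25 to -0.15), with limma's adjusted p = 0.943 and an unadjusted p = 0.0299. The signal was thus 2.29-fold lower in mutants, and without mutant replicate 1 the difference was -0.68 (95% confidence interval -1.42 to 0.06; adjusted p = 0.9998 in limma).

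Slc10a1, also named Ntcp, is the sodium-dependent carrier that takes up most conjugated bile acids from blood. It read 11.14, 11.98 and 12.26 in mutant livers, against 12.00, 12.26 and 12.17 in control livers. Mutant replicate 1 differed from the lowest control by -0.86, while mutant replicate 2 lay just below all controls and mutant replicate 3 at the level of the highest. The difference was -0.35 (SE 0.28; adjusted p = 0.943 in limma), and -0.03 without mutant replicate 1.

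Slco1a1, also named Oatp1a1, is a sodium-independent uptake carrier of the liver that is known to be more abundant in male than in female mice. It read 10.91, 12.38 and 12.06 in mutant livers, against 12.48, 11.90 and 11.86 in control livers. Apart from the low mutant replicate 1, the mutants lay within the range of the controls. The difference was -0.30 (SE 0.37; adjusted p = 0.947 in limma), and 0.14 without mutant replicate 1.

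Slco1b2, also named Oatp1b2, takes up bilirubin, unconjugated bile acids and many drugs. It read 11.04, 12.05 and 11.93 in mutant livers, against 12.07, 11.88 and 11.97 in control livers. The controls spanned only 0.19 log2 units, and mutant replicate 1 differed from the lowest of them by -0.84. The difference was -0.30 (SE 0.26; adjusted p = 0.943 in limma), and 0.01 without mutant replicate 1.

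The 3 SLCO genes lie close together on chromosome 6, in RefSeq order Slco1c1, Slco1b2, Gm5724, Slco1a4, Slco1a1, Gm6614, Slco1a6 and Slco1a5. Slco1c1, Slco1a6 and Slco1a5, the other SLCO genes of the cluster that were measured, were looked up after the transporter values were seen. Their differences were 0.15 (SE 0.15), -0.07 (SE 0.30) and -0.32 (SE 0.29), and none passed (adjusted p = 0.943, 0.976 and 0.943 in limma). Slco1a5 read 5.89, 6.76 and 7.08 in mutant livers, against 7.03, 6.94 and 6.70 in control livers, so mutant replicate 1 was the lowest array there too. These genes are close relatives, and how far their probe sets pick up each other's transcripts was not tested.

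**Figure D2:**
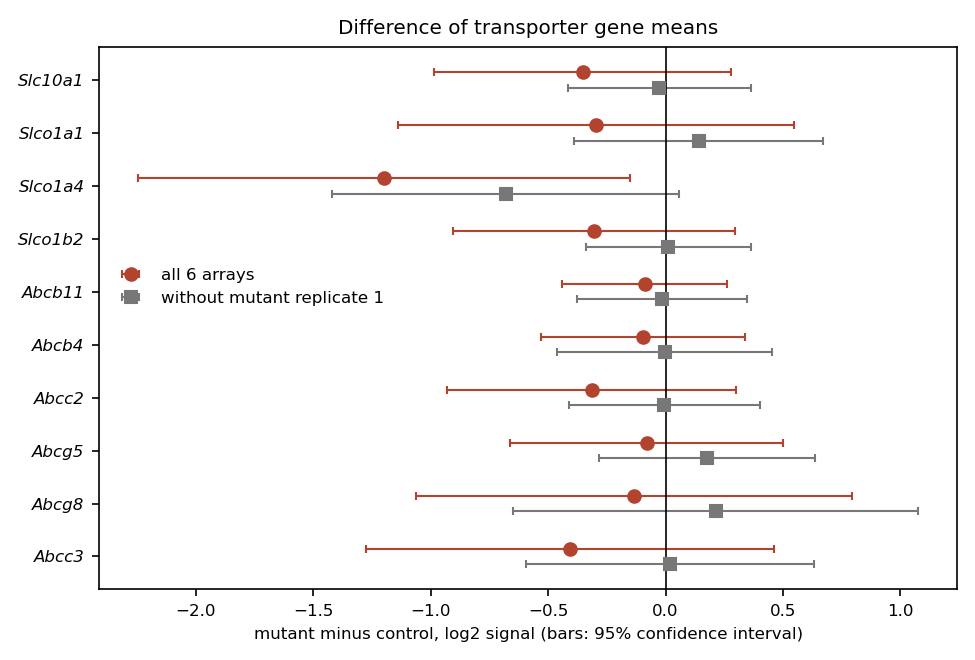
Differences of the gene means, mutant minus control in log2 units, with 95% confidence intervals from limma, on all 6 arrays (circles) and without mutant replicate 1 (squares). Of the 10 intervals on all 6 arrays, only that of Slco1a4 leaves out 0, and without mutant replicate 1 it spans -1.42 to 0.06.

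Of the canalicular exporters, Abcb11 differed little between any of the livers. Abcb11, the bile salt export pump, drives bile acid secretion into bile. It read 12.16, 12.38 and 12.38 in mutant livers, against 12.49, 12.46 and 12.24 in control livers. The mutants spanned 0.23 and the controls 0.26 log2 units, and mutant replicate 1 differed from the lowest control by -0.08. The difference was -0.09 (SE 0.15; 95% confidence interval -0.44 to 0.26; adjusted p = 0.955 in limma).

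Abcb4, known as Mdr2, is the flippase that delivers phosphatidylcholine to bile. It read 10.64, 10.65 and 11.19 in mutant livers, against 10.80, 10.97 and 11.00 in control livers. Mutant replicates 1 and 2 lay below all controls and mutant replicate 3 above all of them. The difference was -0.10 (SE 0.19; adjusted p = 0.957 in limma), and -0.003 without mutant replicate 1.

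Abcc2, known as Mrp2, exports bilirubin glucuronides and glutathione conjugates. It read 11.14, 12.01 and 12.12 in mutant livers, against 11.83, 12.18 and 12.21 in control livers. Mutant replicate 1 differed from the lowest control by -0.69, and the other mutants lay among the controls. The difference was -0.31 (SE 0.27; adjusted p = 0.943 in limma), and -0.005 without mutant replicate 1.

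Abcg5 and Abcg8, which work as a heterodimer to export cholesterol and plant sterols and are known targets of LXR, had the same lowest and highest livers. Abcg5 read 9.34, 9.92 and 10.30 in mutant livers, against 9.85, 10.18 and 9.76 in control livers. Abcg8 read 8.39, 8.96 and 9.91 in mutant livers, against 8.63, 9.73 and 9.30 in control livers. For both genes mutant replicate 1 was the lowest array, mutant replicate 3 the highest and control replicate 2 the highest control. Their differences were -0.08 (SE 0.25) and -0.13 (SE 0.40), with adjusted p = 0.968 for both in limma. Without mutant replicate 1 they were 0.18 and 0.21. The spread among the mutants, 0.96 log2 units for Abcg5 and 1.52 for Abcg8, was larger than either group difference. The 109-base stretch shown above separates the starts of these 2 genes in RefSeq, which lists a further start of Abcg8 elsewhere.

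Abcc3, known as Mrp3, returns glucuronides and bile acids to blood across the basolateral membrane. It read 9.40, 10.39 and 10.96 in mutant livers, against 10.22, 10.91 and 10.83 in control livers. Mutant replicate 1 differed from the lowest control by -0.83, and mutant replicate 3 lay above all controls. The difference was -0.41 (SE 0.38; adjusted p = 0.943 in limma), and 0.02 without mutant replicate 1.

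Averaged over the 4 uptake carriers, the mutants deviated from the control mean by -1.33, -0.23 and -0.04 log2 units, and the controls by -0.02 to 0.03. Averaged over the 5 canalicular exporters, the mutants deviated by -0.57, -0.12 and 0.27, and the controls by -0.19 to 0.20. Uptake carriers and canalicular exporters were not tested against each other.

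At the level of single probe sets, 181 of the 206 had a lower mean in mutants, against 53.2% of all 191663 probe sets that reached the minimum. None of the 206 passed in limma (0% of all probe sets passed), and 10 reached an unadjusted p under 0.05, all of them of Slco1a4 and lower in mutants. Of all probe sets 4.07% reached it in either direction and 2.18% with a lower mean in mutants. In 12 of the 206 every mutant lay below every control (4.44% of all probe sets), and in 0 every mutant lay above (4.01%). Of the 12, 5 were of Slco1a4, 5 of Abcb11, 1 of Slc10a1 and 1 of Slco1b2. Mutant replicate 1 was the lowest array in 163 of the 206 (79.1%), against 29.9% of all probe sets. Without mutant replicate 1, 97 of the 206 had a lower mean in mutants, and the share over all probe sets without that array was not computed. Probe sets of a gene share the same RNA and are not independent of each other.

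**Figure D3:**
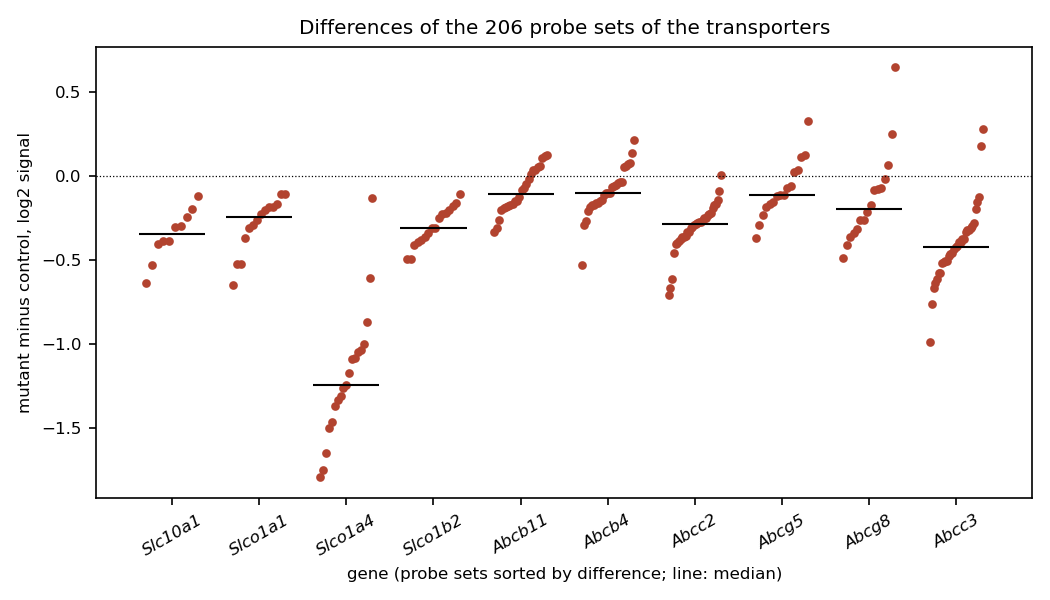
Difference of each of the 206 probe sets, mutant minus control in log2 units, sorted within each gene, with a line at the gene's median. All 19 probe sets of Slco1a4 lie below 0, with a median of -1.25, while those of Abcb11 run from -0.34 to 0.13.

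The probe sets of a gene mostly shared its pattern. All probe sets of the 4 uptake carriers had a lower mean in mutants (10 of Slc10a1, 14 of Slco1a1, 19 of Slco1a4 and 16 of Slco1b2), and so did 31 of 32 of Abcc2 and 30 of 32 of Abcc3. Of the sterol exporter genes, 11 of 16 of Abcg5 and 13 of 16 of Abcg8 were lower, and of the bile salt and phospholipid exporters 16 of 24 of Abcb11 and 21 of 27 of Abcb4. Of the 6 arrays, that of mutant replicate 1 read lowest in all 14 probe sets of Slco1a1, all 16 of Slco1b2, 31 of 32 of Abcc2 and 29 of 32 of Abcc3. In Abcb11 and Abcg8 that held for 11 of 24 and 9 of 16. Mutant replicate 3 was the highest array in 22 of 27 probe sets of Abcb4, 13 of 16 of Abcg8, 11 of 16 of Abcg5 and 19 of 32 of Abcc3. That array also had the highest median signal (6.955), and 37.4% of all genes lay below the control mean in it. In how many of all probe sets it was the highest was not counted.

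Within Slco1a4 the size of the difference varied from -1.80 to -0.13 log2 units. The probe set of smallest p, 4384506, read 7.13, 8.62 and 9.38 in mutant livers, against 9.74, 10.32 and 10.04 in control livers. Every mutant lay below every control there, with a difference of -1.65 (SE 0.53; unadjusted p = 0.0135, adjusted p = 0.994 in limma). The largest difference was that of probe set 4996050, at 5.55, 7.72 and 8.89 in mutant livers, against 8.47, 9.66 and 9.43 in control livers.

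The arrays did not keep the same order in all Slco1a4 probe sets. In 15 of the 19 mutant replicate 1 was the lowest array, and in the other 4 mutant replicate 2 was. Of these 4, probe set 4319485 read 8.90, 8.50 and 10.11 in mutant livers, against 9.46, 10.67 and 10.63 in control livers. Probe set 5474213, the brightest of the gene, read 12.71, 13.17 and 13.23 in mutant livers, against 13.44, 13.09 and 12.97 in control livers, a difference of -0.13 (SE 0.28). Probe set 4556795, the dimmest, read 4.60, 7.50 and 7.62 in mutant livers, against 6.44, 8.22 and 8.19 in control livers, a difference of -1.04 (SE 0.83). The brightest probe set thus varied little over the livers, while the dimmest spanned several log2 units. In the brightest, control replicate 1 was the highest array and mutant replicate 1 the lowest, as in the Slco1a1 gene mean. Probe sets 5323666 (-0.61, SE 0.43) and 4410162 (-0.87, SE 0.54) had the same highest and lowest arrays. In the Slco1a4 gene mean control replicate 1 was the lowest control. Whether these probe sets pick up transcripts of related genes was not tested. The highest signal of any probe set was 14.78 to 14.97 over the arrays. Of the 206 probe sets, 15 had a mean above 13 log2 units, spread over Slc10a1, Slco1a1, Slco1a4, Slco1b2, Abcb11 and Abcc2.

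**Figure D4:**
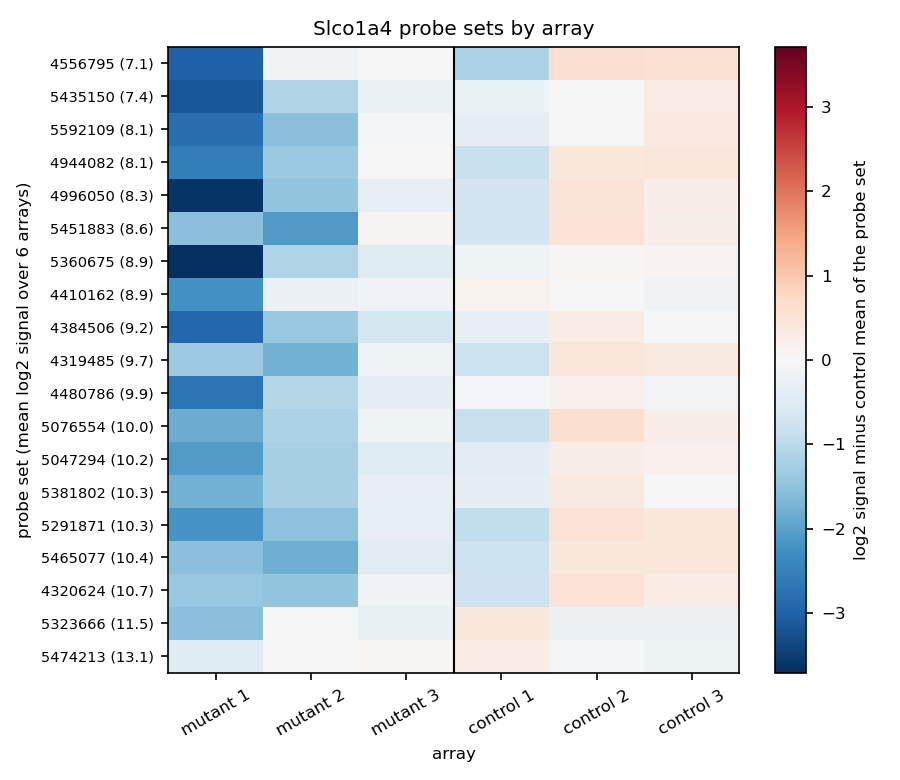
Log2 signal of the 19 Slco1a4 probe sets on each array, relative to the control mean of the same probe set, with mutant arrays left of the line, control arrays right of it and probe sets ordered by mean signal. Mutant replicate 1 is the lowest array in 15 of the 19 rows, and the brightest probe set, 5474213, varies least.

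The 5 Abcb11 probe sets in which the groups did not overlap had small differences. Probe set 5118297 read 12.96, 12.96 and 12.98 in mutant livers, against 13.14, 13.14 and 13.13 in control livers, a difference of -0.17 (SE 0.23; adjusted p = 0.994 in limma). Probe set 5144543, with the smallest p of the gene, read 12.44, 12.77 and 12.84 in mutant livers, against 12.97, 13.08 and 12.999 in control livers, a difference of -0.34 (SE 0.25). The dimmest probe set of Abcb11, 4336846, differed by 0.13 (SE 0.25) and the brightest, 4391579, by -0.02 (SE 0.25).

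In the other uptake carriers the probe sets of smallest p had unadjusted p-values of 0.209 to 0.291. In Slc10a1 this was probe set 4997006, at 11.89, 12.60 and 12.61 in mutant livers, against 12.69, 12.81 and 12.76 in control livers. Every mutant lay below every control there, though mutant replicates 2 and 3 only by a small margin. In Slco1a1 it was probe set 4836231, at 8.37, 9.68 and 10.27 in mutant livers, against 10.22, 10.01 and 9.66 in control livers. Mutant replicate 1 was far below the other arrays, which overlapped. In Slco1b2 it was probe set 5577838, at 7.41, 7.65 and 8.02 in mutant livers, against 7.55, 8.30 and 8.38 in control livers, and there control replicate 1 lay among the mutants.

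Of the exporters, Abcb4 had its smallest p in probe set 5056778, at 8.39, 9.24 and 9.99 in mutant livers, against 9.60, 9.71 and 9.91 in control livers. Abcc2 had it in probe set 5558556, at 10.29, 12.29 and 11.63 in mutant livers, against 12.58, 11.80 and 11.98 in control livers. In both the lowest array was mutant replicate 1 and the others overlapped. In Abcc3 it was probe set 5167899, at 7.19, 6.98 and 7.73 in mutant livers, against 7.27, 8.18 and 8.36 in control livers, with mutant replicate 2 the lowest. In Abcg5 it was probe set 5271434, at 10.18, 11.69 and 11.52 in mutant livers, against 11.66, 11.65 and 11.19 in control livers. In Abcg8 it was probe set 5391098, which had the most positive difference of the 206 (0.64, SE 0.55). It read 7.10, 7.09 and 8.16 in mutant livers, against 5.57, 7.57 and 7.28 in control livers, and here control replicate 1 was the lowest array.

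Exon usage, the shift of single probe sets against the other probe sets of the same gene, was tested with the F-test of limma's diffSplice. It called 0 of the 10 transporters, and 0 had an unadjusted p under 0.05. Of 14310 genes 0.21% passed, and 4% had an unadjusted p under 0.05. The smallest p was that of Abcb11 (unadjusted p = 0.967, adjusted p = 1 in diffSplice), so all 10 lay near the upper limit. The F-test takes the probe sets of a gene as independent, which they are not. These p-values therefore do not show that exon usage was even. In Slco1a4, probe set 5474213 differed by 1.13 from the rest of its gene (unadjusted p = 0.128 in diffSplice). Simes-adjusted tests of the same fit also called 0 of the 10.

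Other carriers went in both directions. In a list of 11 genes put together for the canalicular membrane, which also holds Abca1, Abcc5 and Mal2, genes whose products are not mainly canalicular, 4 were lower and 7 higher in mutants (median 0.05). Without mutant replicate 1, 2 of the 11 were lower (median 0.14). In limma 0 passed, and 0 had an unadjusted p under 0.05. The 3 of smallest p were Abcb1b, a multidrug exporter (0.67, SE 0.37), Abca1, which loads cholesterol onto apolipoprotein A1 (0.33, SE 0.19), and the vesicle protein gene Mal2 (0.44, SE 0.28). Abca1 read 10.96, 10.39 and 10.38 in mutant livers, against 10.22, 10.31 and 10.21 in control livers, so that here every mutant lay above every control and mutant replicate 1 was the highest. It was the 1 gene of the 11 to separate in this way, as 775 of all 15045 genes did.

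Of 8 measured genes in a list put together for other sinusoidal and related carriers 4 were lower and 4 higher (median 0.06). Without mutant replicate 1, 3 were lower (median 0.19). The list also holds Slc25a47 (0.28, SE 0.44), whose product is not a carrier of the plasma membrane. In limma 0 passed, and 0 had an unadjusted p under 0.05. Slco2a1, a prostaglandin carrier, differed by -0.39 (SE 0.18), the aromatic amino acid carrier Slc16a10 by -0.31 (SE 0.17) and the citrate carrier Slc13a5 by 1.23 (SE 0.66). Slc13a5 read 8.69, 5.84 and 6.31 in mutant livers, against 6.21, 5.68 and 5.25 in control livers, with mutant replicate 1 far above the rest. Of 4 other basolateral exporters 2 were lower and 2 higher (median 0.05), as without mutant replicate 1 (2 lower, median 0.04), and again 0 had an unadjusted p under 0.05. Slc51b and Slc51a, the subunits of the organic solute transporter that rises in cholestasis in mice, differed by 0.60 (SE 0.32) and 0.12 (SE 0.16) and were dim, at 4.42 to 5.43 and 5.02 to 5.39 in mutants and 4.08 to 4.95 and 5.08 to 5.16 in controls. Abcc6 differed by -0.17 (SE 0.23). None of these genes passed (adjusted p = 0.943 to 0.984 in limma).

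Of 20 measured regulators known to act on bile transporter genes, 11 were lower and 9 higher (median -0.11), and 14 were lower without mutant replicate 1 (median -0.07). In limma 0 passed, and 1 had an unadjusted p under 0.05. That gene was Cebpa, a hepatocyte transcription factor, which read 9.54, 9.61 and 9.80 in mutant livers, against 10.37, 9.999 and 10.30 in control livers. Every mutant lay below every control, with a difference of -0.57 (SE 0.16; adjusted p = 0.943 in limma). Of the 20 regulators 2 separated in this way, Cebpa and Foxa2 (-0.23, SE 0.15), where 4.32% of all genes did. Of all genes, 2.20% were lower at an unadjusted p under 0.05 in limma. The coactivator Ppargc1a read 5.07, 6.45 and 6.38 in mutant livers, against 6.10, 7.51 and 7.59 in control livers, a difference of -1.10 (SE 0.48), or -0.66 without mutant replicate 1. Klb, the coreceptor for the intestinal bile acid signal FGF15, read 7.18, 8.26 and 8.82 in mutant livers, against 8.70, 9.05 and 8.83 in control livers, a difference of -0.78 (SE 0.37), or -0.33 without mutant replicate 1. In both genes mutant replicate 1 was the lowest array. Of 4 receptor genes looked up after the values were seen, the FXR gene Nr1h4 differed by 0.17, the PXR gene Nr1i2 by -0.06 and the LXR gene Nr1h3 by 0.07. Nr1i3, which encodes the xenobiotic receptor CAR, read 8.40, 9.40 and 10.06 in mutant livers, against 9.24, 9.80 and 9.52 in control livers, so mutant replicate 1 was again the lowest and mutant replicate 3 the highest.

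Of 10 enzymes of bile acid synthesis and conjugation 9 were lower and 1 higher (median -0.14). Without mutant replicate 1, 5 of the 10 were lower (median -0.01). In limma 0 passed, and 0 had an unadjusted p under 0.05. The higher gene was Cyp7b1, an oxysterol hydroxylase (0.64, SE 0.31), at 12.27, 12.19 and 12.36 in mutant livers, against 12.41, 11.18 and 11.31 in control livers. Akr1d1, the steroid reductase of the pathway, differed by -0.64 (SE 0.36) and Baat, which conjugates bile acids to taurine and glycine, by -0.30 (SE 0.21). Mutant replicate 1 was the lowest array in 6 of these 10 genes (32.8% of all genes), and its mean deviation was -0.47.

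Other gene lists moved with mutant replicate 1 at the same time. Over 17 acute phase genes the mutants deviated from the control mean by 1.77, 0.69 and 0.43 log2 units and the controls by -0.06 to 0.03. All 17 had a higher mean in mutants (median 0.56) and mutant replicate 1 was the highest array in 17 of 17. Of all 15045 genes, 7146 had a higher mean in mutants and mutant replicate 1 was the highest array in 3098. Without that array 3 of the 17 were lower (median 0.24). Lcn2, an iron-sequestering acute phase protein, read 13.57, 11.19 and 10.14 in mutant livers, against 6.88, 7.11 and 7.93 in control livers. The serum amyloid gene Saa3 and haptoglobin (Hp) had the next smallest p, with differences of 3.29 (SE 0.97) and 0.92 (SE 0.29), and none of the list passed (adjusted p = 0.547 for Lcn2 in limma). The part of this response in the transporter values was not tested.

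Over 15 clock and clock output genes the mutants deviated by -0.61, -0.49 and 0.02 and the controls by -0.29, 0.13 and 0.16. Nr1d1, a repressor of the clock, read 7.30, 8.14 and 10.50 in mutant livers, against 9.13, 10.91 and 10.66 in control livers. Of these genes 12 were lower and 3 higher in mutants (median -0.29), and 13 were lower without mutant replicate 1 (median -0.14). The part of sampling time was not tested. Bhlhe41 and Tef differed by -0.57 (SE 0.24) and -0.56 (SE 0.29).

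Markers of other cells were also compared, and in a whole liver fewer cells of a type and less RNA per cell cannot be told apart. Over 12 Kupffer cell markers the mutants deviated by 0.54, -0.27 and -0.24 and the controls by -0.35 to 0.18, with differences of 0.71 (SE 0.35) for the scavenger receptor Marco, -0.34 (SE 0.20) for Csf1r and -0.31 (SE 0.24) for Adgre1. Over 9 neutrophil markers the mutants deviated by 0.94, 0.15 and -0.03 and the controls by -0.13 to 0.09, with differences of 1.05 (SE 0.33) for the protease gene Prtn3, 0.59 (SE 0.23) for Ngp and -0.35 (SE 0.20) for Camp. Mutant replicate 1 was the highest array for the mean of both marker lists. Of the 12 Kupffer cell markers 6 were lower and 6 higher, and 11 were lower without mutant replicate 1. Of the 9 neutrophil markers 3 were lower and 6 higher, and 5 were lower without it.

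Over 9 bile duct markers the deviations were 0.47, 0.08 and 0.23 in mutants and -0.11 to 0.18 in controls, with differences of 1.07 (SE 0.55) for Spp1, 0.63 (SE 0.33) for the bile acid carrier Slc10a2 and 0.28 (SE 0.16) for the claudin gene Cldn7. Spp1 read 10.09, 7.49 and 8.50 in mutant livers, against 7.91, 7.52 and 7.43 in control livers, so mutant replicate 1 was far above the rest, and the difference was 0.38 without it. Of the 9 markers 1 was lower and 8 higher, with a median of 0.10, and the differences of Krt7 (0.07), Krt19 (0.04), Cftr (0.009) and Epcam (-0.009) were near 0. Over 6 intestinal markers the deviations were 0.10, 0.20 and 0.26 in mutants and -0.06 to 0.12 in controls. Besides Slc51b and Slc10a2, given above, the intestinal transcription factor gene Cdx2 differed by 0.17 (SE 0.17). Of the 6 intestinal markers 4 were higher and 2 lower, Fabp2 (-0.27, SE 0.41) and Lct (-0.10, SE 0.20), with a median of 0.12. Fabp2 read 8.06, 9.07 and 9.55 in mutant livers, against 8.48, 9.51 and 9.49 in control livers. That was far above Vil1 (4.78 to 5.25), and which cells gave the Fabp2 signal was not tested. Without mutant replicate 1, 1 of the 6 was lower (median 0.14).

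Over 10 stellate cell markers the deviations were -0.60, -0.26 and 0.005 in mutants and -0.15 to 0.16 in controls, with differences of -0.81 (SE 0.34) for decorin (Dcn), -0.93 (SE 0.40) for reelin (Reln) and -0.85 (SE 0.39) for Lrat, which esterifies retinol. The other 7 markers had differences between -0.17 (Col3a1) and 0.13 (Des), and the median of the list was -0.09, with 8 lower and 2 higher. Dcn read 9.97, 11.14 and 11.35 in mutant livers, against 11.40, 11.72 and 11.78 in control livers, and its difference was -0.39 without mutant replicate 1. For Reln and Lrat that value was -0.45 and -0.47. Over 9 endothelial markers they were -0.05, -0.60 and 0.24 in mutants and -0.29 to 0.22 in controls, with differences of -0.40 (SE 0.22) for the cadherin gene Cdh5, -0.29 (SE 0.17) for Stab2 and -0.32 (SE 0.23) for Pecam1. Of the 9 endothelial markers 5 were lower and 4 higher (median -0.22), the 4 being Clec4g (0.25), Stab1 (0.05), Fcgr2b (0.04) and Lyve1 (0.01), and 9 were lower without mutant replicate 1 (median -0.19). Over 10 lymphocyte markers they were -0.06, -0.22 and -0.12 in mutants and -0.05 to 0.04 in controls, with differences of -0.48 (SE 0.19) for Klrb1c, -0.34 (SE 0.17) for Cd3g and -0.27 (SE 0.17) for Cd4. Of these 10, 7 were lower and 3 higher, and 8 were lower without mutant replicate 1.

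The 10 hepatocyte markers deviated by -0.05, -0.05 and 0.10 in mutants and by -0.05 to 0.04 in controls, with differences of 0.19 (SE 0.16) for Apoa1, 0.13 (SE 0.14) for transferrin (Trf) and -0.15 (SE 0.16) for Apoc3. That mean covers markers that went both ways, 5 lower and 5 higher. Cyp2e1, a drug-metabolising enzyme, read 11.63, 12.28 and 12.44 in mutant livers, against 12.16, 12.30 and 12.50 in control livers, and albumin (Alb) 13.64, 14.05 and 14.01 in mutant livers, against 14.02, 14.01 and 13.95 in control livers. The transcription factor gene Hnf4a read 11.75, 10.94 and 11.40 in mutant livers, against 11.26, 11.26 and 11.30 in control livers. Mutant replicate 1 was thus the lowest array for Cyp2e1 and albumin and the highest for Hnf4a. Fgb, a fibrinogen gene that is also on the acute phase list, read 13.73 in mutant replicate 1. Over 10 male-biased liver genes the mutants deviated by -0.35, 0.49 and 0.40 and the controls by 0.43, -0.25 and -0.18. Next to Cyp7b1 the differences were 0.75 (SE 0.37) for Cyp4a12b and 0.58 (SE 0.52) for Selenbp2. Of these 10 genes 4 were lower and 6 higher (median 0.08), and 3 were lower without mutant replicate 1 (median 0.43). No gene of these lists passed (adjusted p = 0.943 or higher in limma). The part of other cell types in the transporter values was not tested.

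**Figure D5:**
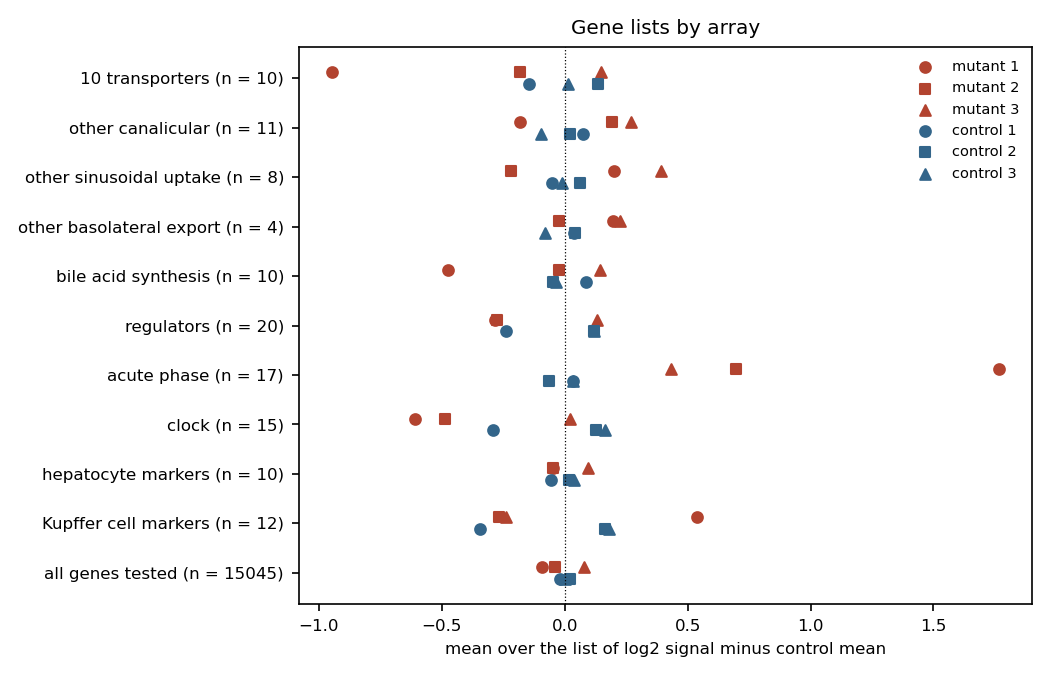
Mean over each gene list of the log2 signal relative to the control mean of each gene, 1 point per array, with the 3 mutants drawn above the 3 controls in each row and the number of genes in brackets. Mutant replicate 1 is the lowest point for the 10 transporters, at -0.95, and the highest for the acute phase genes, at 1.77, while the mean of the hepatocyte markers, whose members went both ways, stays within 0.10 of the control mean on every array.

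The genes whose profile over the 6 arrays lay closest to the mean profile of the transporters were Cutal, Ndufs1, Suox, Pdha1 and Shprh, out of the genes with an SD of at least 0.2. Likeness was the root mean square distance between profiles centred on their own mean, which was 0.04 to 0.05 log2 units for these 5. Ndufs1, a subunit of respiratory complex I, read 9.82, 10.60 and 10.93 in mutant livers, against 10.56, 10.80 and 10.79 in control livers. Among the transporters themselves Slc10a1 lay closest to that mean profile (0.03) and Slco1a4 farthest from it (0.53). With 6 arrays, 1 of them far from the rest, many genes come close to such a profile.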

How the data were processed

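Per the labels' protocols, amplified and biotin-labelled cDNA of total liver RNA was put on Affymetrix exon arrays. The deposited values are log2 signals, 1 per probe set and array. The submitters' processing notes name Affymetrix Expression Console 1.1, RMA, Partek 6.4 and mm9, with no order. RMA is a method that subtracts background, normalizes arrays to each other and summarises probes. With 3 arrays per group, the number of arrays limits the precision.

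Symbols came from the platform annotation and a RefSeq gene table (GRCm38.p6, for names, gene order and upstream sequence). Of the probe sets 185264 had 1 symbol, 3488 several and 15779 none listed. Probe sets with a group mean of 3 or more were kept (191663), and a gene's value was the mean of at least 2 of them with 1 symbol. Mutants were compared with controls in limma 3.58.1 (R 4.3.3), with p-values adjusted by Benjamini-Hochberg across every gene or probe set in the fit, at 0.05. Exon usage was fitted with diffSplice for genes of at least 3 probe sets. Each step was tested on simulated data. No gene shifted about as much as most of the transporters differed was called, and few probe sets or exons with shifts somewhat above that size. A count of 0 calls therefore does not show that such differences are absent. Of genes shifted by 1 log2 unit, 47.8% were called. That share is over randomly chosen genes that varied independently of each other. It does not give the share for a gene as variable as Slco1a4, whose difference had an SE of 0.46. With each probe set at its own spread, exon usage gave 127 false calls, so its counts of calls may hold false ones. With spreads equal within a gene it gave 3. The simulated probe sets varied independently of each other, while measured ones of a gene share the same RNA. Nothing says whether mice of a group came from separate litters, so p-values measure the spread between these animals.

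All 10 transporters are named, with the probe sets of smallest p, of lowest and of highest mean where described. From each other list the 3 genes of smallest p are named, and further list members only to show how a list's members differ, chosen after their values were seen. The dimmest and brightest probe sets are given for Slco1a4 and Abcb11 only. Probe sets 4996050, 4319485, 5323666, 4410162 and 5118297 were chosen after their values were seen. The members and lists were chosen with earlier results of these data known. The GATA box was added after the Abcg5 and Abcg8 sequence was seen. Alternatives were no minimum or one of 5, quantile normalization, centred array medians, medians over probe sets, an intensity trend, array weights, a replicate block, Simes tests and leaving out each array.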

Additional observations from a re-analysis of the deposited data

How the results depend on the processing

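No alternative called a transporter gene, a transporter probe set or the exon usage of a transporter. The result that changed was the common direction, and it changed without mutant replicate 1: with 1 array left out, 5 to 10 of the 10 genes and 97 to 193 of the 206 probe sets had a lower mean in mutants, and the median difference ran from -0.47 to 0.005. Under the other settings, 9 or 10 of the 10 were lower. With array weights the Slco1a1 difference was 0.095. Leaving out arrays, the differences of Slco1a1, Slco1b2, Abcc3, Abcg5 and Abcg8 ran from -0.59 to 0.14, -0.49 to 0.012, -0.76 to 0.019, -0.30 to 0.18 and -0.55 to 0.21; those of Abcg5 and Abcg8 were 0.05 and 0.12 without control replicate 2. The cause was not tested. The Slco1a4 difference ran from -1.69 (without mutant replicate 3) to -0.68 (without mutant replicate 1), with adjusted p = 0.531 to 0.9998 in limma over all alternatives. Its unadjusted p in limma was 0.0630 to 0.0874 without mutant replicate 1 or 2 or control replicate 2 or 3. It was 0.00252 without mutant replicate 3, 0.0252 without control replicate 1 and 0.00566 with array weights. Under the other gene-level settings, apart from the replicate block given below, it was 0.0182 to 0.0342. Over all genes exon usage called 13 to 58 with an array left out, 18 with a replicate block and 130 by Simes tests, against 30, and gene differences 0 to 3, against 1.

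A replicate block left the 10 differences as they were and called 0 transporter genes (Slco1a4 adjusted p = 0.554 in limma, unadjusted p = 0.00272), with 17 probe sets at an unadjusted p under 0.05, against 10. The labels do not say whether the replicate numbers pair the mice. Over all genes, deviations of same-numbered arrays correlated at 0.10, -0.11 and 0.18, and those of differently numbered arrays at -0.30 to 0.21. The same-numbered values thus lay within the range of the others, which gives no support for pairing and does not settle it. The SE of the Slco1a4 difference was 0.27 with the block, against 0.46. Centring arrays on their medians moved the median difference of all genes to 0.03, against -0.01, and that of the transporters to -0.25.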
